A study of Mus musculus with 14 samples.

Results

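The transcription factor NRF2, the product of Nfe2l2, and the antioxidant genes it is known to control were followed in mouse liver. The 10 genes were fixed by name: Nfe2l2 itself, its inhibitor Keap1, and Gclc, Gclm, Gsr, Slc7a11, Txnrd1, Srxn1, Nqo1 and Hmox1. They are 10 of the 17656 genes listed for each library. Total liver RNA of 14 C57BL/6 mice aged 8 weeks was sequenced, 1 library per mouse. Concanavalin A (ConA), a plant lectin that activates T cells and causes immune-mediated hepatitis, was given at 8 mg/kg into the tail vein, or saline was given, and livers were taken 8 h later. Saline was given to 3 WT and 3 KO mice and ConA to 4 WT and 4 KO mice, KO being the short name for mice labelled Ythdf1 knockout. YTHDF1 is a reader of the m6A mark on RNA, and the study made its knockout line with CRISPR/Cas9, a deletion that is not limited to 1 liver cell type.

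NRF2 is normally bound by KEAP1, which hands it to a ubiquitin ligase for degradation. Oxidants and electrophiles modify KEAP1, NRF2 then enters the nucleus, pairs with a small MAF protein and binds antioxidant response elements near its target genes. The targets make glutathione, keep thioredoxin reduced, and remove quinones and free heme, tasks for which hepatocytes are known. NRF2 is regulated mainly as a protein, so the level of its own transcript is not a measure of its activity.

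Values are TPM, a gene's share of the transcripts of its library after division by gene length, so levels of different genes can be set side by side. TPM carries no read numbers, so the depth is unknown and the spread between mice was the error used throughout. Each library listed 2230 to 2701 genes at 0. WT saline replicates 2 and 3 were nearly identical, with a median size of their log2 ratio of 0.0467 for genes from 100 TPM, against 0.0972 to 0.362 in the other 17 replicate pairs, and they were averaged and counted as 1 sample in every test. WT ConA replicate 3 stood apart, with the lowest value of its group for 9 of the 10 genes. Its median ratio to the geometric mean of all 14 libraries was 0.791. KO ConA replicate 3 was the lowest of its group for 6 of the 10, with a median ratio of 0.847. Beside a member's value, the value without them is given where it changes a call or moves the value by over 1.5 times. The whole-gene value of Ythdf1 was 18.4 to 20.8 TPM in the KO saline livers against 12.03 to 13.9 TPM in their WT controls. After ConA it was 15.5 to 26.2 TPM in KO and 18.7 to 25.6 TPM in WT livers. It therefore does not check the genotype label.

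Antioxidant response elements near the starts of the genes were looked for because they define the pathway. Promoter windows of 300 bases from RefSeq (GRCm38.p6), 250 before and 50 after a transcript start, were at hand for 7 of the 10 genes, in 9 windows. No window was at hand for Hmox1, Gclc and Gsr. The core letters TGACNNNGC and the related letters TGAGNNNGC were searched on both strands. They cannot overlap each other at the same position and strand, because they differ in the fourth letter. Of 32851 mouse windows, 12.4% held the first, 17.6% the second and 27.8% either. Among the members, 5 of 9 windows held a match, belonging to Nfe2l2, Srxn1, Slc7a11, Gclm and Txnrd1. Txnrd1 had several windows, not all of which held a match. The windows of Keap1 and Nqo1 held none of these letters. The stretches of Nfe2l2, Srxn1 and Gclm are printed below, and those of Slc7a11 and Txnrd1 are not. Srxn1 had 3 matches, the first 158 and the second 45 bases before the start, and the last 28 bases after it, counted to the first base of the match. The stretches below run 5′ to 3′ on the strand of the gene, with the matched letters in capitals and 10 bases on either side; where the match lies on the opposite strand the capitals show its complement.
Nfe2l2 (chr2:75704885-75704913, minus strand): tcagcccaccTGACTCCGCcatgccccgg
Srxn1 (chr2:152105356-152105384, plus strand): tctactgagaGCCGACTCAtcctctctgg
Srxn1 (chr2:152105469-152105497, plus strand): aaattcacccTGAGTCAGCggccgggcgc
Srxn1 (chr2:152105542-152105570, plus strand): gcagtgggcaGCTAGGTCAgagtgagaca
Gclm (chr3:122245413-122245441, plus strand): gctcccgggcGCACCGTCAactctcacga
These matches are letters in a window and are not evidence that NRF2 was bound there.

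ConA did not move the 10 genes in 1 direction. In both genotypes Hmox1, Keap1 and Srxn1 were higher after ConA and Gclm and Nqo1 were lower, each past the test. In WT livers ConA changed 6 of the 9 tested members, 3 higher and 3 lower, at an adjusted p under 0.05 (limma on log2(TPM + 1), Benjamini-Hochberg adjustment). Of all 10985 tested genes 42.1% were called, 17.1% higher and 24.9% lower. In KO livers 8 of the 9 were called, 6 higher and 2 lower, where 64.6% of 10988 tested genes were called, 33.9% higher and 30.7% lower. The median log2 fold change of the 9 members was 0.34 in WT and 0.78 in KO livers, against -0.07 and 0.07 over all tested genes. Slc7a11 stayed under 1 TPM in all 14 livers and could not be tested. The groups did not overlap for 6 of the 9 tested members in WT and for 8 of the 9 in KO livers. Over all tested genes this held for 57.7% in WT livers (23.5% higher after ConA, 34.2% lower) and for 64.3% in KO livers (32.8% higher, 31.5% lower). Each comparison has its own saline and ConA mice, but the genotype comparisons further on use the same mice again.

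**Figure D1:**
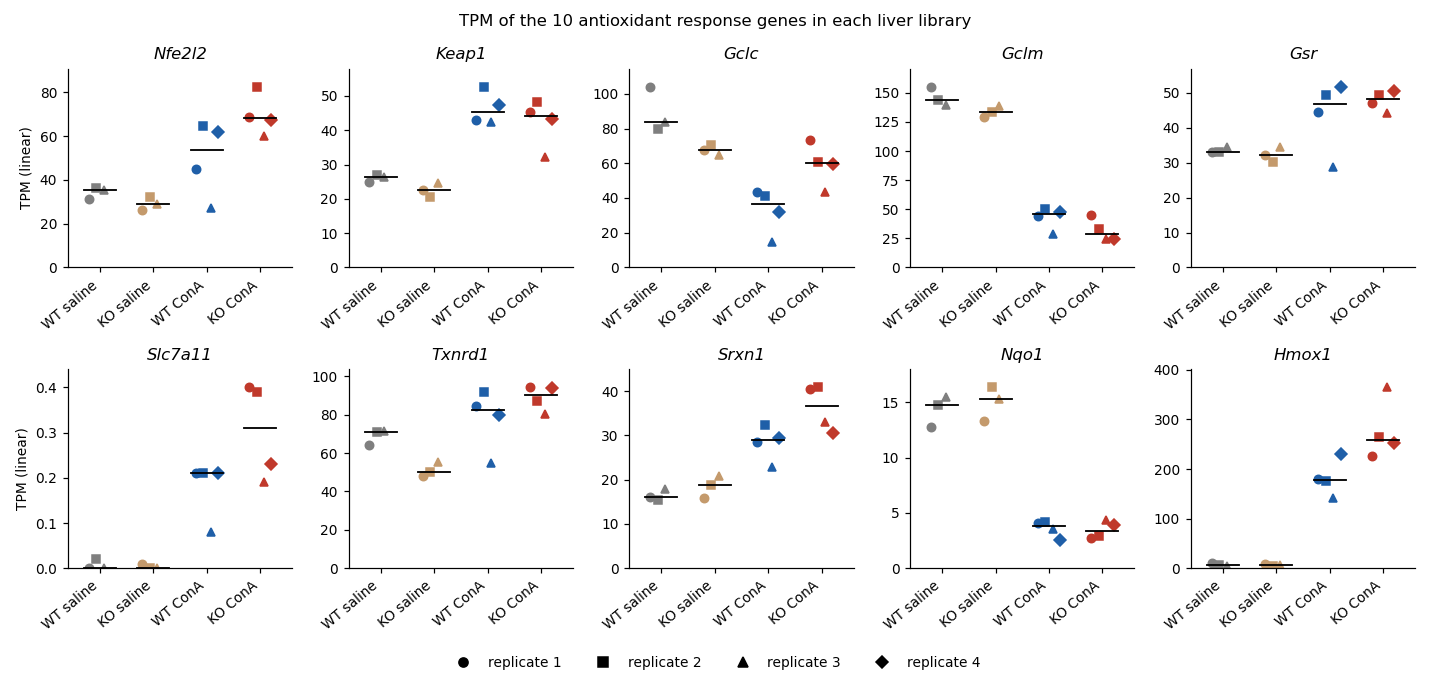
TPM (linear axis from 0, its own scale for each gene) of the 10 genes in each of the 14 livers, by group. Points are single mice, their shapes give the replicate number, and the black bar is the median of the group. Hmox1 is at 4.53 to 10.9 TPM in the saline livers and at 142 to 364 TPM after ConA, while all Gclm and Nqo1 values after ConA lie below all saline values.

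The factor and its inhibitor came first. Nfe2l2 (chr2:75675513-75704663, GRCm38.p6) stood at 31.3, 36.3 and 35.4 TPM in the WT and at 26.2, 32.2 and 29.0 TPM in the KO livers given saline. After ConA it stood at 44.9, 64.4, 27.2 and 61.9 TPM in WT and at 68.7, 82.5, 60.2 and 67.4 TPM in KO livers. All 4 KO ConA livers lay above all KO saline livers, whereas WT ConA replicate 3 lay below the 3 WT saline livers and the other 3 WT ConA livers above them. The rise in KO livers was 1.23 ± 0.14 (SE) on the log2 scale (adjusted p 1.72e-05). In WT livers the log2 fold change was 0.48 ± 0.33, with a 95% interval from -0.27 to 1.23 (adjusted p 0.277). Without WT ConA replicate 3 it was 0.73 and passed the test, with an adjusted p of 0.0155.

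Keap1 (chr9:21229730-21239332), the adaptor that marks NRF2 for degradation, rose in both genotypes. It was at 24.9, 27.1 and 26.2 TPM in WT saline livers and at 43.1, 52.7, 42.5 and 47.3 TPM in WT ConA livers. In KO livers it was at 22.7, 20.6 and 24.5 TPM after saline and at 45.3, 48.2, 32.2 and 43.2 TPM after ConA. The saline and ConA groups did not overlap in either genotype, and KO ConA replicate 3 was the lowest of the 8 ConA livers. The log2 fold change was 0.82 ± 0.16 in WT, adjusted p 0.00461, and 0.86 ± 0.15 in KO livers, adjusted p 0.000509. Without WT saline replicate 1 the WT value was 0.77 with an adjusted p of 0.0653.

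Of the genes of glutathione synthesis, Gclm fell in both genotypes and Gclc in WT livers. Gclc (chr9:77754535-77794489) encodes the catalytic and Gclm (chr3:122245487-122267215) the modifier subunit of glutamate-cysteine ligase, the rate-limiting enzyme of glutathione synthesis. Gclm, the highest of the 10 genes in saline livers, was at 155, 144 and 139 TPM in the WT and at 129, 134 and 139 TPM in the KO livers given saline. After ConA it was at 43.8, 50.2, 28.8 and 47.5 TPM in WT and at 45.0, 33.0, 24.8 and 24.6 TPM in KO livers. All 8 ConA livers lay below all saline livers. The log2 fold change of Gclm was -1.81 ± 0.23 in WT, adjusted p 0.000521, and -2.08 ± 0.19 in KO livers, adjusted p 4.51e-06. Its promoter stretch with a core match is printed above.

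Gclc was at 104, 79.6 and 83.7 TPM in WT saline livers and at 43.3, 41.1, 14.4 and 32.1 TPM in WT ConA livers, with no overlap. In KO livers it was at 67.8, 70.6 and 64.7 TPM after saline and at 73.2, 60.9, 43.4 and 59.3 TPM after ConA, and KO ConA replicate 1 lay above all KO saline livers. Gclc fell in WT livers by 1.58 on the log2 scale (SE 0.40), with an adjusted p of 0.0133. That call was lost without WT saline replicate 1, with a value of -1.40 and an adjusted p of 0.102, and without WT saline replicates 2 and 3, with -1.75 and 0.0538. In KO livers the log2 fold change was -0.21 ± 0.16, with a 95% interval from -0.57 to 0.14 (adjusted p 0.263). Without KO ConA replicate 3 it was -0.075 (adjusted p 0.562) and without KO ConA replicate 1 it was -0.32 (adjusted p 0.0888).

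Gsr (chr8:33653238-33698162), glutathione reductase, which returns oxidized glutathione to its reduced form, was called in KO livers. It was at 32.1, 30.2 and 34.5 TPM in KO saline and at 47.2, 49.4, 44.3 and 50.4 TPM in KO ConA livers, a log2 fold change of 0.55 ± 0.11 (adjusted p 0.00135). In WT livers it was at 33.1, 33.1 and 34.4 TPM after saline and at 44.5, 49.5, 28.8 and 51.8 TPM after ConA. WT ConA replicate 3 was the only WT ConA liver below the saline livers. The WT log2 fold change was 0.34 ± 0.24, with an adjusted p of 0.295, and without that library it was 0.52 with an adjusted p of 0.0108.

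Slc7a11 (chr3:50364936-50499087) encodes xCT, the transporter that brings in cystine for glutathione. Of the 6 saline livers 4 were listed at 0, and the others at 0.02 TPM (WT) and 0.01 TPM (KO). After ConA it was listed at 0.21, 0.21, 0.08 and 0.21 TPM in WT and at 0.40, 0.39, 0.19 and 0.23 TPM in KO livers. All 8 ConA livers were above all saline livers, at levels far below 1 TPM that the 2 decimals of the deposited values hold only coarsely. With no filter on low values, Slc7a11 was called in both ConA responses, with adjusted p of 0.0244 in WT and 0.00152 in KO livers, and no fold is given against values listed at 0.

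Among the thioredoxin genes, Srxn1 (chr2:152105524-152111376) rose in both genotypes. It encodes sulfiredoxin, which repairs overoxidized peroxiredoxins, and its promoter window held the 3 matches printed above. It was at 16.1, 15.4 and 18.0 TPM in WT saline livers and at 28.4, 32.3, 23.0 and 29.5 TPM in WT ConA livers. In KO livers it was at 15.9, 18.8 and 20.8 TPM after saline and at 40.4, 40.8, 33.0 and 30.5 TPM after ConA. Saline and ConA livers did not overlap in either genotype. The log2 fold change was 0.74 ± 0.18 in WT, adjusted p 0.0121, and 0.93 ± 0.15 in KO livers, adjusted p 0.000273. The WT call was lost without WT saline replicate 1 (adjusted p 0.108) and without WT saline replicates 2 and 3 (adjusted p 0.0925).

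Txnrd1 (chr10:82833951-82897724), the cytosolic thioredoxin reductase, rose in KO livers. It was at 48.3, 50.4 and 55.3 TPM in KO saline and at 94.1, 86.9, 80.2 and 93.7 TPM in KO ConA livers. The KO log2 fold change was 0.78 ± 0.11, with an adjusted p of 0.000125. In WT livers it was at 64.1, 70.7 and 71.6 TPM after saline and at 84.7, 91.6, 54.8 and 79.8 TPM after ConA. Again WT ConA replicate 3 fell below the saline livers while the other 3 stood above them. The WT log2 fold change was 0.17 ± 0.22 (95% interval -0.33 to 0.68, adjusted p 0.566), and without that library it was 0.33 with an adjusted p of 0.0583.

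Hmox1 had the largest change of the 9 tested members in both genotypes. Hmox1 (chr8:75093618-75100593), heme oxygenase 1, which opens the heme ring, was at 10.9, 6.70 and 5.32 TPM in the WT and at 7.83, 4.53 and 5.96 TPM in the KO livers given saline. After ConA it was at 181, 177, 142 and 231 TPM in WT and at 227, 265, 364 and 252 TPM in KO livers. From the second lowest of the 10 genes in saline livers, above Slc7a11 alone, it became the highest in every ConA liver. The log2 fold change was 4.31 ± 0.26 in WT, 19.85-fold on the TPM + 1 scale with an adjusted p of 1.55e-05, and 5.29 ± 0.19 in KO livers, 39.2-fold with an adjusted p of 6.64e-09.

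Nqo1 (chr8:107388225-107403205), the quinone reductase that is widely used as a reporter of NRF2 activity, went the other way. It was at 12.8, 14.8 and 15.5 TPM in the WT and at 13.3, 16.3 and 15.3 TPM in the KO livers given saline. After ConA it was at 4.11, 4.22, 3.59 and 2.55 TPM in WT and at 2.76, 2.88, 4.33 and 3.93 TPM in KO livers. No ConA liver reached even the lowest saline liver. The log2 fold change was -1.71 ± 0.22 in WT, adjusted p 0.000479, and -1.85 ± 0.17 in KO livers, adjusted p 5.43e-06. Its promoter window, 250 bases before and 50 after a start, held neither set of core letters, and sequence farther away was not searched. Gclm, which also fell, had a match in its window. Whether these letters have a part in the fall was not tested.

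**Figure D2:**
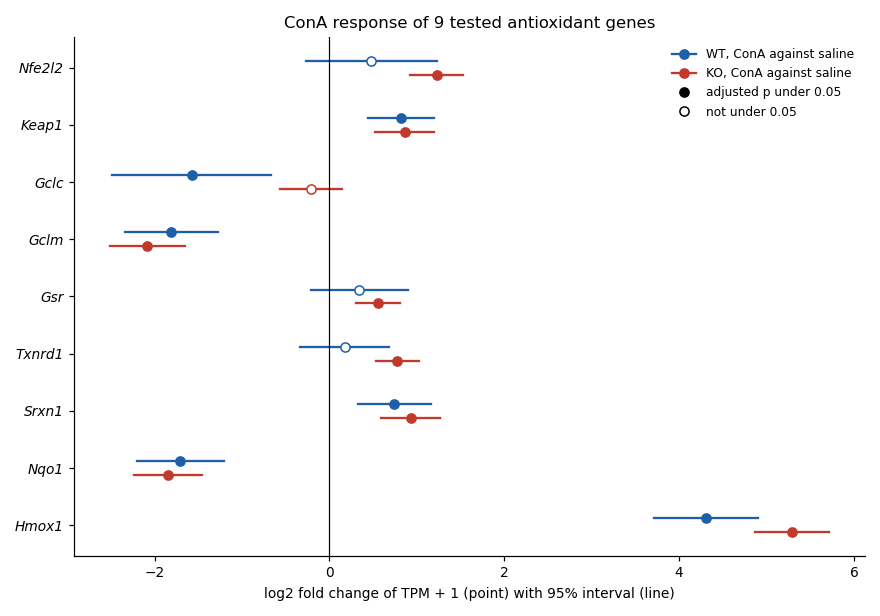
Log2 fold change of TPM + 1 after ConA (horizontal axis, point) with its 95% interval (line) for the 9 tested genes, in WT (blue) and KO (red) livers. Filled points have an adjusted p under 0.05. Hmox1 is at 4.31 in WT and 5.29 in KO, Gclm and Nqo1 are below 0 in both, and the WT intervals of Nfe2l2, Gsr and Txnrd1 and the KO interval of Gclc cross 0.

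The makeup of the liver RNA moved with ConA. Hepatocyte markers (Alb, Ttr and others, 7 genes, all measured) had summed levels of 116134 to 134941 TPM in the WT and 108050 to 126110 TPM in the KO saline livers. After ConA the sums were 57942 to 80523 TPM for WT and 52175 to 64033 TPM for KO livers. Of these 7 genes 6 fell and 0 rose in each genotype. Beside this and the marker counts below, 24.9% of all tested genes fell and 17.1% rose in WT livers. In KO livers 30.7% of all tested genes fell and 33.9% rose. Neutrophil markers (6 genes, all measured) summed to 9.54 to 11 TPM in the WT and 5.27 to 10.7 TPM in the KO saline livers. After ConA they summed to 315 to 554 TPM for WT and 410 to 944 TPM for KO livers, and 5 of the 6 rose in each genotype. Most of each ConA sum came from S100a8 and S100a9. S100a8 ranged from 134 to 253 TPM (WT) and from 186 to 452 TPM (KO). S100a9 ranged from 156 to 265 TPM (WT) and from 197 to 442 TPM (KO). Ly6g was the marker without a call, with log2 fold changes of -0.83 (WT, adjusted p 0.221) and -0.21 (KO, adjusted p 0.37). Retnlg was the only neutrophil marker listed at 0 in some of the saline livers, and it passed the filter through the ConA livers alone. Kupffer cell markers (7 genes, all measured) summed to 66.0 to 115 TPM in the WT and 28.3 to 62.1 TPM in the KO saline livers. Their sums after ConA were 5.84 to 30.9 TPM for WT and 5.70 to 21.8 TPM for KO livers, with 6 of 7 lower in WT and 4 of 7 lower in KO livers. Adgre1 is among the 6, and in WT livers it passed the filter through the saline group alone. Monocyte markers (5 genes) summed to 31.7 to 46.9 TPM in the WT and 13.3 to 39.6 TPM in the KO saline livers. After ConA the sums were 21.6 to 40.95 TPM for WT and 22.25 to 65.9 TPM for KO livers, and Lyz2 was the highest of these genes in every liver. Of 4 tested, 2 rose in WT and 3 in KO livers. Ly6c2 (0.13 to 0.51 TPM in saline, 1.39 to 7.81 TPM in ConA livers) and Itgam (0.07 to 0.55 and 1.21 to 4.5 TPM) passed the filter through the ConA livers alone. T cell markers (5 of 6 measured) summed to at most 4.29 TPM in any liver. The part of these shifts in the rise of Hmox1 or the fall of Gclc, Gclm and Nqo1 was not tested. In bulk liver RNA, fewer cells of a type and less RNA per cell cannot be told apart.

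The effect of the Ythdf1 knockout was compared within each treatment. In saline livers limma called 0 of the 9 tested members between KO and WT, where 0.459% of 10675 tested genes were called. At an unadjusted p under 0.05 there were 2 members and 26.1% of all tested genes. The 2 were Txnrd1 (log2 fold change -0.39, adjusted p 0.119) and Gclc (-0.44, adjusted p 0.124, or -0.2669 without WT saline replicate 1). For 4 of the 10 genes (Txnrd1, Gclc, Gclm and Keap1) all KO saline livers lay below all WT saline livers, while 42% of tested genes had groups that did not overlap, 28.7% with KO lower. When the 3 WT saline libraries were counted as labelled, Txnrd1 was called lower in KO saline livers, with a value of -0.42 on the log2 scale (adjusted p 0.0266), and 2009 genes were called in all.

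After ConA, limma again called 0 of the 9 members between KO and WT, where 0.428% of 10519 tested genes were called. At an unadjusted p under 0.05 there were 4 members and 16.7% of all tested genes, and the 4 had higher means in KO livers. Gclc had a log2 fold change of 0.92 ± 0.30 (95% interval 0.25 to 1.59, adjusted p 0.167) and was the only member whose groups did not overlap, with KO livers from 43.4 to 73.2 TPM and WT livers from 14.4 to 43.3 TPM. Its margin was narrow, and groups that did not overlap were seen for 10.5% of tested genes, 6.37% with KO higher. Hmox1 had a log2 fold change of 0.60 ± 0.18 (95% interval 0.20 to 0.99, adjusted p 0.143), with only KO ConA replicate 1, at 227 TPM, below the highest WT ConA liver, at 231 TPM. Nfe2l2 had 0.55 (adjusted p 0.287) and Srxn1 had 0.34 (adjusted p 0.294).

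These 4 values were smaller without the 2 ConA libraries numbered 3. The log2 fold change was then 0.72 for Gclc, 0.34 for Hmox1, 0.36 for Nfe2l2 and 0.29 for Srxn1, with adjusted p from 0.103 to 0.342. Without WT ConA replicate 3 alone, the value was 0.5824 for Gclc and 0.293 for Nfe2l2. With all libraries, Keap1 had a log2 fold change of -0.14 (95% interval -0.48 to 0.19) and Nqo1 of -0.05 (-0.46 to 0.37) between the genotypes. Without KO ConA replicate 3 the Keap1 value was -0.0215 and the Nqo1 value -0.1348. Txnrd1 had 0.21 (adjusted p 0.57), and 0.0543 without WT ConA replicate 3, and Gsr had 0.16 (adjusted p 0.704), and -0.0211 without the same library. Gclm had a log2 fold change of -0.42 with an interval of -0.92 to 0.08. The summed neutrophil markers after ConA, 410 to 944 TPM for KO and 315 to 554 TPM for WT livers, overlapped between the genotypes, and their part in the Hmox1 difference was not tested.

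The test of the difference between the ConA responses (KO minus WT) called 0 of the 9 members with limma, where 0.243% of 11535 tested genes were called, and 3 members and 18.7% of all genes had an unadjusted p under 0.05. Gclc had the largest value among the members, at 1.36 ± 0.44 on the log2 scale (95% interval 0.41 to 2.31, adjusted p 0.141). Without both ConA libraries numbered 3 the value for Gclc was 1.16 and passed the test, with an adjusted p of 0.0256, as 537 genes did in all. Hmox1 had 0.98 ± 0.34 (adjusted p 0.159) and Txnrd1 0.60 ± 0.24 (adjusted p 0.2). For Nfe2l2, which passed the test in KO and not in WT livers, the difference was 0.75 with a 95% interval of -0.01 to 1.51 (adjusted p 0.275), and without WT ConA replicate 3 it was 0.494 (adjusted p 0.305). Without WT saline replicate 1 the value for Hmox1 was 0.6022 (adjusted p 0.454).

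**Figure D3:**
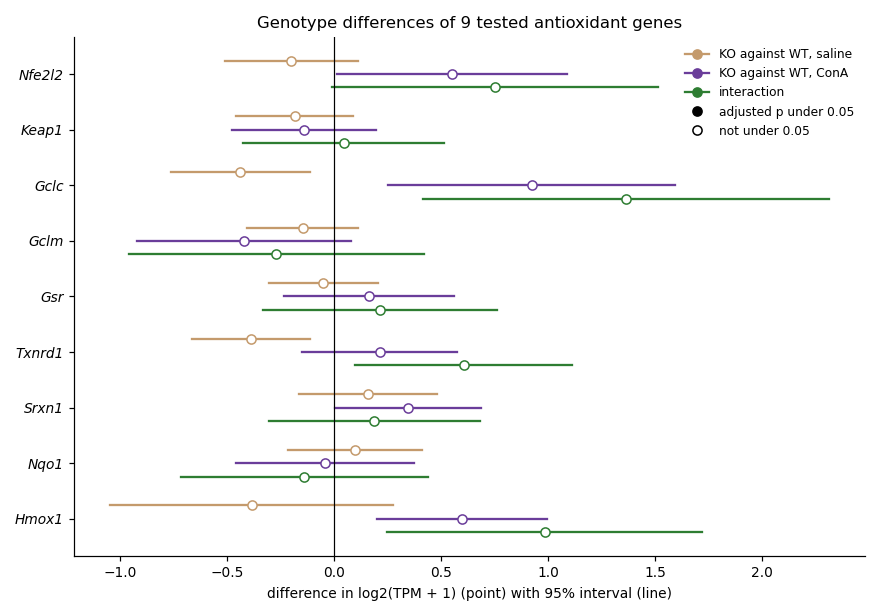
Differences in log2(TPM + 1) between KO and WT livers (horizontal axis, point) with 95% intervals (line) for the 9 tested genes, in saline livers (tan), in ConA livers (purple) and as the difference between the ConA responses (green). All points are open because none has an adjusted p under 0.05, and Gclc at 0.92 after ConA and 1.36 for the difference between responses lies farthest from 0.

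The 2 subunit genes of glutamate-cysteine ligase changed their order in KO livers after ConA. The ratio of Gclc to Gclm TPM was 0.670, 0.552 and 0.600 in WT saline and 0.525, 0.528 and 0.467 in KO saline livers. After ConA it was 0.988, 0.819, 0.501 and 0.677 in WT and 1.63, 1.85, 1.75 and 2.41 in KO livers. In every KO ConA liver the catalytic subunit had more TPM than the modifier subunit, and in the other 10 livers it had less. The ratio does not depend on how a library is scaled, and it was chosen after the values were seen, so it is a description with no test.

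**Figure D4:**
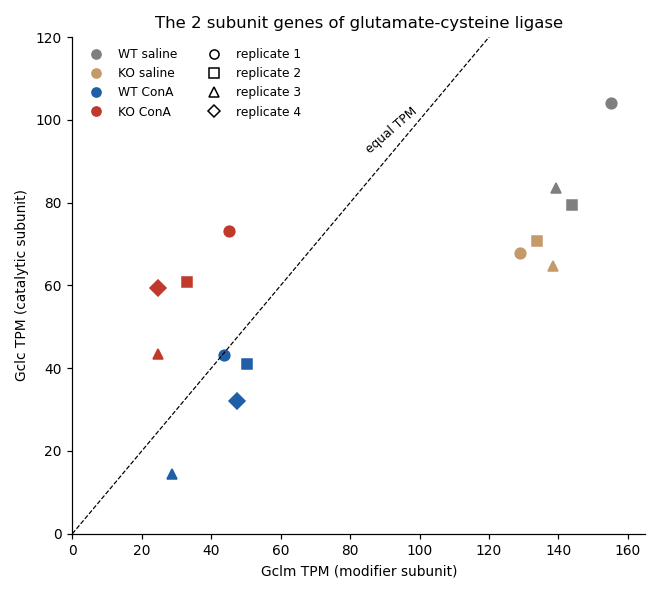
Gclc TPM (vertical axis) against Gclm TPM (horizontal axis) in each of the 14 livers, with group by colour and replicate number by shape. The dashed line marks equal TPM of the 2 genes. The 4 KO ConA livers lie above the line and the other 10 livers below it, the WT ConA replicate 1 liver close to it at a ratio of 0.988.

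Other genes around the pathway were followed in 8 lists with 90 genes, all of them measured and none of them a member. In WT livers 53 of 84 tested genes were called after ConA, 17 higher and 36 lower, with a median log2 fold change of -0.49. In KO livers 66 of 85 were called, 22 higher and 44 lower, with a median of -0.44. Cd163, Asns, Psat1 and Phgdh passed the filter on low values through 1 treatment alone, with no library of the other at 1 TPM, so they had to differ. Without these 4 genes 14 rose and 35 fell of 80 in WT livers, and 19 rose and 43 fell of 81 in KO livers. Over all tested genes 42.1% and 64.6% were called, with medians of -0.07 and 0.07.

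Among 12 tested partners and regulators of NRF2, 3 rose and 1 fell in WT livers, and 5 rose and 1 fell in KO livers. These calls, 4 of 12 and 6 of 12, were not more frequent than the 42.1% and 64.6% over all tested genes. Maff, a small MAF protein that pairs with NRF2, had the smallest p in both, with log2 fold changes of 1.85 in WT (adjusted p 0.000157) and 3.70 in KO livers (adjusted p 3.61e-07). It was at 7.02 to 9.41 TPM in the WT and 3.33 to 6.62 TPM in the KO saline livers, and after ConA at 26.4 to 35.1 TPM (WT) and 51.0 to 86.2 TPM (KO). Maff was higher in KO than in WT ConA livers by 1.098 on the log2 scale (adjusted p 0.0369), and its ConA response was larger in KO livers by 1.84 (adjusted p 0.046). These calls were lost in 11 of 17 and 14 of 22 alternative settings, where adjusted p reached 0.18 and 0.279. Mafk, another small MAF gene, rose by 0.58 in WT (adjusted p 0.0426) and by 1.22 in KO livers (adjusted p 8.34e-05). Bach1, a repressor that competes with NRF2 for the same elements, rose by 1.31 in KO livers (adjusted p 6.32e-05), and its value in WT livers was -0.09 (adjusted p 0.841), or 0.1614 without WT ConA replicate 3. Sqstm1, which encodes the KEAP1-binding protein p62, rose by 0.51 (adjusted p 0.0374) and 0.89 (adjusted p 0.00028) in the same order of WT and KO.

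Among 15 tested genes of glutathione synthesis, use and recycling, 6 fell and 2 rose in WT livers, and 9 fell and 3 rose in KO livers. The shares over all tested genes were 24.9% lower and 17.1% higher in WT, and 30.7% lower and 33.9% higher in KO livers. Gss, which adds the last amino acid of glutathione, fell by 0.66 on the log2 scale in WT (adjusted p 0.00906) and by 0.75 in KO livers (adjusted p 0.000167). Gstm1, a glutathione transferase, fell by 1.16 (adjusted p 0.0226) and 2.25 (adjusted p 4.4e-06), and Mgst1, a membrane-bound transferase, by 0.85 (adjusted p 0.0156) and 1.102 (adjusted p 2.23e-05). The peroxidase gene Gpx4 fell by 0.54 in WT (adjusted p 0.0378) and 1.09 in KO livers (adjusted p 7.18e-05). Gpx1, another peroxidase gene, fell by 0.66 in WT livers (adjusted p 0.0101), and its KO value was -0.27 (adjusted p 0.245), with a range of -0.532 to -0.1424 over the alternatives.

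In the thioredoxin and peroxiredoxin list, 5 of 13 genes fell and 1 rose in WT livers, and 8 fell and 2 rose in KO livers. These calls, 6 of 13 and 10 of 13, stood beside 42.1% and 64.6% of all tested genes. By direction, all tested genes had 24.9% lower and 17.1% higher in WT, and 30.7% lower and 33.9% higher in KO livers. Prdx6, a peroxiredoxin, fell by 1.48 in WT (adjusted p 0.000242) and by 1.31 in KO livers (adjusted p 5e-06). Prdx2 fell by 0.90 (adjusted p 0.0029) and 1.54 (adjusted p 4e-07), Txnrd3 by 1.43 (adjusted p 0.000427) and 1.18 (adjusted p 6.99e-05). Sesn2, a stress-induced sestrin, rose by 1.18 (adjusted p 0.0063) and 1.92 (adjusted p 9.58e-06). Txnip, the inhibitor of thioredoxin, fell by 2.11 in WT livers (adjusted p 0.000385), from 84.8 to 94.0 TPM in saline to 14.1 to 26.1 TPM in ConA livers. In KO livers Txnip was at 34.9 to 53.0 TPM after saline and 28.2 to 50.01 TPM after ConA (log2 fold change -0.25, adjusted p 0.291, with a range of -0.5264 to -0.1009 over the alternatives). The difference between these responses was 1.87 (adjusted p 0.046), a call lost in 12 of 22 alternative settings, where adjusted p reached 0.197.

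Genes that supply NADPH fell in 5 of 7 cases in both genotypes, with 1 higher. Of all tested genes 24.9% fell and 17.1% rose in WT livers, and 30.7% fell and 33.9% rose in KO livers. Idh1, the cytosolic isocitrate dehydrogenase, fell by 1.51 in WT (adjusted p 0.000237) and by 2.10 in KO livers (adjusted p 7.44e-08). It was lower in KO than in WT ConA livers, at 51.0 to 60.3 against 78.3 to 102 TPM, by 0.76 on the log2 scale (adjusted p 0.0369), a call lost in 9 of 17 alternative settings, where adjusted p reached 0.121. Me1, malic enzyme, fell by 0.996 in WT (adjusted p 0.0088) and by 1.11 in KO livers (adjusted p 0.000164). Pgd, of the pentose phosphate pathway, rose by 0.74 (adjusted p 0.00732) and 0.44 (adjusted p 0.0316). Pgls and Tkt of the same pathway fell by 0.75 (adjusted p 0.0155) and 0.65 (adjusted p 0.0372) in WT and by 1.36 (adjusted p 3.39e-06) and 1.33 (adjusted p 6.37e-06) in KO livers.

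The quinone, carbonyl and drug detoxification targets fell with Nqo1, with 12 of 14 lower in WT and 13 of 15 lower in KO livers and 0 higher in either. Among all tested genes 24.9% were lower in WT and 30.7% in KO livers. Cbr1, a carbonyl reductase, fell by 1.94 in WT (adjusted p 0.000109) and 2.66 in KO livers (adjusted p 2.51e-08), and Aldh3a2, which oxidizes fatty aldehydes, by 3.16 (adjusted p 0.000106) and 2.47 (adjusted p 8.08e-07). Cyp2a5, a cytochrome P450, fell by 3.19 (adjusted p 5.6e-05) and 2.63 (adjusted p 1.32e-05), and Nqo2, a relative of Nqo1, by 1.95 (adjusted p 0.000236) and 1.76 (adjusted p 3.76e-06). The summed hepatocyte markers fell in the same livers, and their part in this list was not tested.

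Beside Hmox1, 2 of 10 genes of heme breakdown and iron storage rose and 5 fell in each genotype. Without Cd163 2 of 9 rose and 4 fell. Of all tested genes 17.1% rose and 24.9% fell in WT livers, and 33.9% rose and 30.7% fell in KO livers. Hpx and Hp, the plasma carriers of heme and of hemoglobin, rose by 2.43 (adjusted p 2.69e-05) and 2.60 (adjusted p 2.06e-05) in WT and by 2.84 (adjusted p 4.99e-08) and 2.63 (adjusted p 3.23e-07) in KO livers. Cd163, the macrophage receptor for haptoglobin-bound hemoglobin, was at 1.88 to 3.54 TPM in the WT and 1.08 to 2.66 TPM in the KO saline livers, and at 0.11 to 0.20 TPM (WT) and 0.13 to 0.22 TPM (KO) after ConA. It passed the filter through the saline livers alone, which fixed its direction, so no test is given. The fall was 1.68 in WT and 1.25 in KO livers, or 3.53 and 2.76 with a pseudocount of 0.1 in place of 1. Blvrb, which encodes biliverdin reductase B, fell by 1.43 (adjusted p 0.00115) and 1.78 (adjusted p 1.34e-06). Of the genes that remove superoxide and peroxide, Cat, catalase, fell by 2.08 in WT (adjusted p 0.000132) and 2.24 in KO livers (adjusted p 6.34e-08), while mitochondrial Sod2 rose by 1.53 (adjusted p 0.000176) and 1.75 (adjusted p 1.58e-07). Sod1 fell by 0.88 (adjusted p 0.00243) and 1.23 (adjusted p 2.72e-05).

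The last list held Atf4, whose product ATF4 is a stress factor that also controls Slc7a11, and 8 of its targets. Asns, Psat1 and Phgdh were under 1 TPM in every saline liver and passed the filter through the ConA livers alone, which fixed their direction. Of the other 6 genes, 4 rose in WT and 5 in KO livers, with 0 lower, where 17.1% and 33.9% of all tested genes rose. Atf4 itself rose by 1.18 in WT (adjusted p 0.000471) and 1.43 in KO livers (adjusted p 4.26e-06); it, Psat1 and Phgdh are named after their values were seen. Atf3, a stress-induced factor, rose by 4.06 in WT (adjusted p 2.83e-05) and 5.84 in KO livers (adjusted p 8.03e-08). Ddit4, an inhibitor of mTORC1, rose by 3.70 (adjusted p 0.000266) and 2.97 (adjusted p 9.91e-07), and Ddit3, the factor CHOP, by 2.66 (adjusted p 0.000881) and 2.43 (adjusted p 6.29e-07). Asns, asparagine synthetase, was at 0.09 to 0.38 TPM in the 6 saline livers and at 2.62 to 4.81 TPM in the 8 ConA livers. Between the genotypes limma called 0 of 82 listed genes in saline and 2 of 83 in ConA livers, Maff and Idh1. For the difference between responses it called 2 of 86, Maff and Txnip. The shares called of all tested genes were 0.459%, 0.428% and 0.243% in this order.

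**Figure D5:**
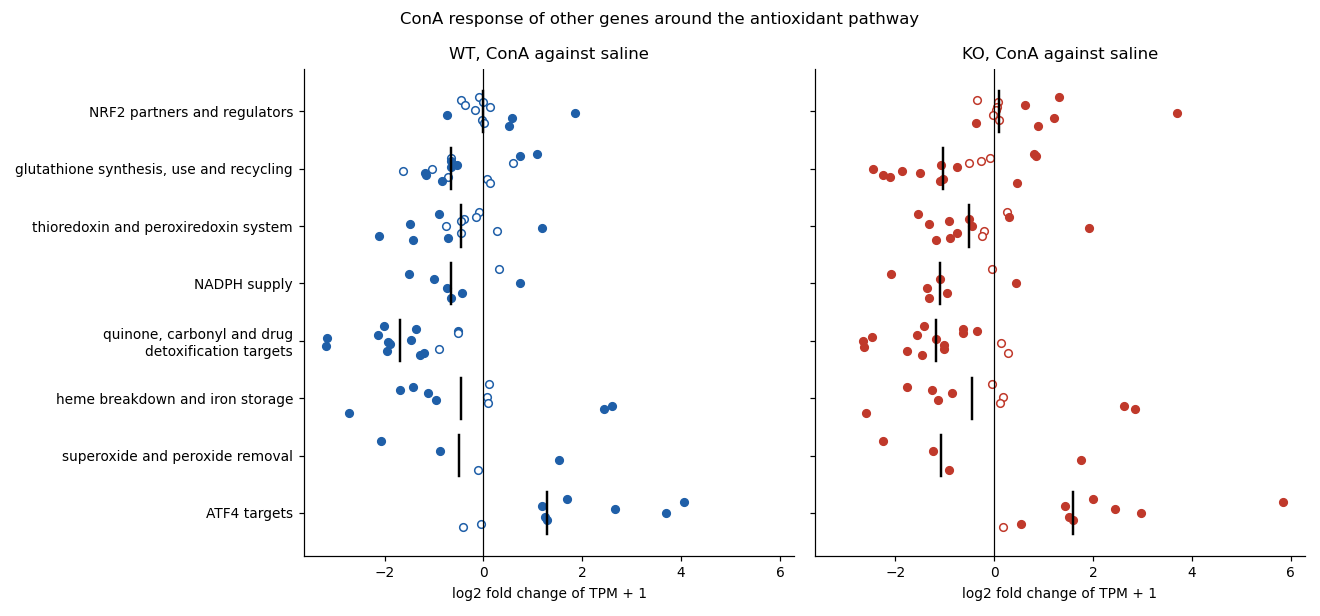
Log2 fold change of TPM + 1 after ConA (horizontal axis) of each tested gene in the 8 lists of other pathway genes, in WT (left, blue) and KO (right, red) livers. Each point is a gene, filled where the adjusted p is under 0.05, and the black bar is the median of the list. The detoxification targets have a median of -1.68 in WT and -1.18 in KO livers and no filled point above 0, while the ATF4 list has medians of 1.289 and 1.598, or 1.92 and 1.933 without the 3 genes that passed the filter through the ConA livers alone.

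The genes most like a member over the 14 livers were found by Pearson's r of log2(TPM + 1) among 7215 genes with a mean of at least 5 TPM. The livers share the contrast between ConA and saline, so a high r says mainly that both genes follow it, and r is a description. Hmox1 was most like Ccl2, a chemokine (r = 0.995), Rela, a subunit of NF-kB (0.994), and Tnfaip3, the NF-kB inhibitor A20 (0.994). Nqo1 was most like Nipsnap1 (0.996), the glutaminase gene Gls2 (0.995) and the mitochondrial carrier gene Slc25a10 (0.994). The likeness was lower for Nfe2l2, with Chmp2b (0.968), Stam2 (0.965) and Vcl (0.965), and for Srxn1, with Sugt1 (0.970), Smarce1 (0.969) and Agpat5 (0.967). For Slc7a11, at levels of at most 0.40 TPM, the nearest were Cdc42se1 (0.974), Galnt2 (0.972) and Gm42031 (0.971).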

How the data were processed

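Libraries of liver RNA from 14 mice were read on a BGISEQ-500, single-end, 50 bases. The authors deposited 1 table of TPM values per library, with 2 decimals over 17656 genes. The submitters' processing notes name Bowtie2, RSEM 1.3.1 and GRCm38.p6, while the methods of the study name STAR and HTSeq, so the path from reads to TPM is uncertain. Read numbers are not carried by TPM, so no counting error could be given.

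Groups were taken from the sample labels. Genes with a TPM of at least 1 in as many samples as the smaller group were tested with limma 3.58.1 (R 4.3.3, trend) on log2(TPM + 1), using the samples of the groups compared, or all 4 groups for the difference between responses. Fold changes of low genes are understated on this scale. A call needed an adjusted p (Benjamini-Hochberg) under 0.05. WT saline replicates 2 and 3 were averaged, which left 2 samples in that group. Each p-value sets a difference of group means against the spread within groups, which limma draws toward that of genes of similar level. The procedure was tested on simulated data.

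The members and lists were chosen with earlier results of these data known. Named were the members, per list the called genes with the smallest p (up to 3) in each ConA response, all called listed genes (up to 5) in the genotype comparisons, and the 3 genes most like Nfe2l2, Hmox1, Nqo1, Srxn1 and Slc7a11. There were 8 pathway and 9 cell type marker lists, and the stellate, endothelial, bile duct and red cell markers are given after the report. The alternatives tried were 0.1 as pseudocount, a 5 TPM filter or none, rescaled libraries (median ratio to the geometric mean), a robust fit, all groups in 1 fit, each sample left out, both ConA libraries numbered 3 left out, WT saline as labelled and a replicate block. Rescaling together with leaving out those libraries was added after the data were seen. Same-numbered libraries did not deviate together in all pairs of any comparison (r from -0.203 to 0.416 over 10457 genes). The highest r was that of the 2 ConA libraries numbered 3. The main tests did not take the numbers as pairs, and whether same-numbered libraries share a batch was not tested. Sequences are from RefSeq promoter windows of GRCm38.p6. Figures used Python 3.11.15, pandas 2.3.3 and matplotlib 3.10.9.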

Additional observations from a re-analysis of the deposited data

Results flagged for a closer look

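In 20 groups of 4 livers (10 genes in each ConA group), a single value stood outside its group by Dixon's criterion in 1 case. Slc7a11 was listed at 0.08 TPM in WT ConA replicate 3, against 0.21 TPM in each of the other 3 WT ConA livers. Chance gives about 1 such case in 20 groups. The library is the one with the lowest value for 9 of the 10 genes, and a level of this size rests on the second decimal of the deposited values.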

How the results depend on the processing

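Over 755 recomputed values of single members, 724 kept their direction and their side of the threshold, 5 lost and 11 gained a call, and 15 changed sign. All 144 values of the KO ConA response kept their direction and their side of the threshold, Gclc without a call throughout, and none of the 144 of the WT ConA response changed sign. Depth is unknown from TPM, 2 samples stand for WT saline, and 3 to 4 mice a group limit what could be called.

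Leaving out 1 sample at a time gave 2153 to 6145 called genes and 3 to 8 called members in the WT ConA response, the 3 without WT saline replicate 1 and the 8 without WT ConA replicate 3. It gave 31 to 58 genes in KO against WT saline, 5 to 65 in KO against WT ConA and 5 to 68 for the difference between responses, with 0 members in each. Of the listed genes named in the WT ConA response, Gpx4 lost its call in 7 of 16 alternatives, Tkt in 6, Sqstm1, Mafk and Gstm1 in 5, Gss, Mgst1 and Pgls in 3, and Gpx1, Pgd, Me1 and Sesn2 in 2, and Pgd lost its KO call in 8. Txnip, not called in KO livers, was called with rescaling and without both ConA libraries numbered 3. In KO against WT saline, no filter gave 30 called genes and WT saline as labelled 2009 genes and 1 member, Txnrd1. In KO against WT ConA, no filter gave 3, rescaled libraries 25 (12 higher and 13 lower, where the deposited scale gave 36 and 9), all 4 groups in 1 fit 440, and rescaling without both ConA libraries numbered 3 gave 5. For the difference between responses, a pseudocount of 0.1 gave 15 genes, rescaling 7, leaving out both ConA libraries numbered 3 gave 537 genes and 1 member, WT saline as labelled 541, and rescaling without both libraries 244 genes and 1 member. The member was Gclc, at 1.02 with an adjusted p of 0.0423 in the last of these. Rescaling moved the median over all genes of this difference from 0.14 to 0.02. The causes were not tested.

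The replicate block treated same-numbered libraries as matched, which was not established. With it, limma called 2423 genes and 1 member (Txnrd1, adjusted p 0.0244) in KO against WT saline and 140 genes in KO against WT ConA. For the difference between responses the block gave 358 genes and 1 member (Gclc, 1.304, adjusted p 0.0497). It gave 5065 and 6544 genes in the WT and KO ConA responses.

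Sign changes among the members occurred only in values that were not called. Bach1, a listed gene, was at 0.0026 in the WT ConA response after rescaling, at 0.1614 without both ConA libraries numbered 3, at 0.1678 with both changes, and from -0.1923 to 0.1614 when 1 sample was left out. Gsr was at 0.0157 in KO against WT saline after rescaling, and in KO against WT ConA from -0.0211 (without WT ConA replicate 3) to 0.2534 when 1 sample was left out and at -0.0556 with rescaling and without both ConA libraries numbered 3. Nqo1 ranged from -0.0202 to 0.2104 in KO against WT saline and from -0.1663 to 0.033 in KO against WT ConA when 1 sample was left out. For the difference between responses Keap1 was at -0.1011 after rescaling and ranged from -0.0251 to 0.1641 when 1 sample was left out. With rescaling and without both ConA libraries numbered 3, Keap1 was at -0.0117, Gsr at -0.0713 and Srxn1 at -0.0028.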

Other observations

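Markers of other liver cells are given here as values. Stellate cell markers (5 genes) summed to 15.1 to 59.9 TPM in the WT and 55.7 to 95.4 TPM in the KO saline livers, and after ConA to 20.7 to 59.97 TPM (WT) and 49.5 to 97.3 TPM (KO). Sinusoidal endothelial markers (5 genes) summed to 12.95 to 21.1, 22.1 to 37.7, 11.2 to 28.7 and 12.9 to 35.4 TPM in the same order. Cholangiocyte markers (4 genes) summed to 3.97 to 5.39, 6.16 to 15.3, 8.03 to 11.9 and 9.11 to 20.99 TPM. Erythroid markers (4 genes) summed to 1309 to 3126, 2163 to 13352, 1075 to 2132 and 688 to 3045 TPM. Dcn was the highest stellate marker in every liver. In KO livers 2 of the 5 fell and 0 rose, beside 30.7% and 33.9% of all tested genes. Lrat, at 0.54 to 3.22 TPM in saline and 0.12 to 0.44 TPM in ConA livers, passed the KO filter through saline alone. Lyve1, an endothelial marker, was at 0.41 to 1.44 TPM in saline and 1.95 to 11.9 TPM in ConA livers. Clec4g, another, was at 6.2 to 22.2 TPM in saline and 0.39 to 5.01 TPM in ConA livers. Between the genotypes limma called 0 of the 38 tested marker genes in saline and 0 of 35 in ConA livers. Of all tested genes it called 0.459% and 0.428%.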
